A study of Homo sapiens with 16 samples.

Results

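The 7 genes described here encode stress transcription factors and effectors that act downstream of the transcription factor ATF4 or pair with it: DDIT3, TRIB3, CHAC1, ATF3, ATF5, CEBPB and CEBPG. They were chosen by symbol, as 7 of the 58735 genes in the deposited count table, and all 7 passed the filter on low counts that left 17309 genes for testing. Messenger RNA was sequenced from SW620, an established human colorectal cancer cell line, in 16 libraries. The shATF4 line, which carries a short hairpin RNA against ATF4, had 3 untreated libraries, 3 after 24 h in 5 µM 5-fluorouracil (5-FU) and 2 after 48 h. The scramble line, which carries a non-targeting hairpin, had 3 untreated libraries, 3 after 24 h in 5 µM 5-FU and 2 after 48 h. 5-FU is a fluorinated uracil used in colorectal cancer therapy, which disturbs thymidylate supply and enters RNA and DNA. The stated aim of the series concerns ATF4 in chemotherapy resistance. All cells carried a hairpin, and 1 hairpin line was set against 1 control line, so loss of ATF4 cannot be told apart from other differences between the lines. Whether replicates came from separate cultures is not stated, and p-values therefore speak of the spread among these 16 libraries, which may be technical. The 4 libraries titled 48 h carry a treatment tag of 24 h; the title was followed, since the design text also gives a 48 h group.

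ATF4 is the main effector of the integrated stress response, in which kinases that sense stress phosphorylate eIF2α, general translation falls and ATF4 mRNA is translated more. ATF4 binds DNA as a dimer with C/EBP proteins and other basic leucine zipper (bZIP) factors, and it activates DDIT3, whose protein CHOP then joins ATF4 on many of the same targets. ATF4 is thus controlled largely at translation, which RNA counts do not show. TRIB3 and CHAC1 are textbook targets of the pathway, ATF3 is an early stress-induced repressor, ATF5 is the closest relative of ATF4, and CEBPB and CEBPG encode C/EBP partners.

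Total counts ran from 14571611 to 17824188 per library. ATF4 itself averaged 173 ± 5.16 CPM in untreated shATF4 cells against 378 ± 12.9 CPM in untreated scramble cells (SD, n = 3 each; CPM are counts scaled to the TMM-adjusted library size). It was 2.19-fold lower untreated, 2.53-fold lower at 24 h and 2.86-fold lower at 48 h. ATF4 mRNA did not rise above its untreated level with the drug. At 24 h its log2 change was -0.65 ± 0.09 in shATF4 cells (edgeR adjusted p = 4.07e-06) and -0.44 ± 0.09 in scramble cells (0.000259). At 48 h over untreated it was -0.58 ± 0.10 in shATF4 cells (adjusted p = 3.84e-05) and -0.19 ± 0.10 in scramble cells (adjusted p = 0.0934). From 24 h to 48 h it changed by 0.08 ± 0.10 in shATF4 cells (0.543) and rose by 0.25 ± 0.09 in scramble cells (0.0394). The difference between these changes did not pass (-0.18 ± 0.14, adjusted p = 0.458). The epithelial markers EPCAM, KRT8, KRT18, KRT19, CDH1, CDX2 and VIL1 were at 11.1 CPM or more in every library, while LGALS4 lay between 0.067 and 0.947 CPM. Their summed level ran from 6503 to 6965 CPM at 48 h and from 11180 to 11748 CPM untreated in shATF4 cells, and from 7309 to 7490 CPM and from 11090 to 12469 CPM in scramble cells. Of the 8 markers of other cell types, PTPRC, CD3E, COL1A2 and DCN had 0 to 3 counts per library. The fibroblast marker COL1A1 had 106 to 360 counts (7.24 to 21.9 CPM) and the endothelial marker PECAM1 had 19 to 105. CD14 had 1 to 19 counts and ALB had 0 to 18. The summed level of all 8 ran from 17.6 to 27.1 CPM in treated libraries and from 10.5 to 15.7 CPM in untreated ones. A part of either sum in the results below was not tested.

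A pair of libraries stood apart from the rest of their groups. One was shATF4 24 h replicate 3, with 0.0713% of its counts on RN7SL, the RNA of the signal recognition particle, and 0.0224% and 0.0241% in its 2 companions. The other was scramble untreated replicate 2, with 1.42% of its counts on the protein-coding genes of the mitochondrial genome, and 0.753% and 0.766% in its 2 companions. A raised RN7SL share was not particular to the first of these libraries. Scramble untreated replicate 1 had 0.0161%, against 0.00368% in replicate 2 and 0.00310% in replicate 3. Among the 7 genes, CEBPB in shATF4 24 h replicate 3 lay furthest from its group, at 0.516 of the mean of the other 2 libraries, while the other 6 genes lay at 0.768 to 1.33 of theirs. In scramble untreated replicate 2 all 7 genes lay at 0.901 to 1.13 of the mean of the other 2. Results that rest on these libraries are given with and without them where leaving 1 out changes a call or moves a called value, or an uncalled value the text dwells on, by over 1.5 times.

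The promoter windows below show where the letters of 2 known binding motifs fall in genes that behaved differently in the experiment. DDIT3 responded unequally in the 2 lines, and CHAC1 and ATF3 rose at 48 h in both. CEBPG did not pass at 48 h in either. Only windows with a match are printed, and the other ATF3 and CEBPG windows held neither motif. Each window covers 250 bases before to 50 after a RefSeq start site (GRCh38.p14), and is written 5′ to 3′ on the strand of the gene. Capitals mark TGATGNAA, the C/EBP-ATF composite element to which ATF4 and CHOP dimers bind, on either strand, and TGANTCA, the AP-1 element bound by FOS, JUN and ATF3 dimers.
DDIT3, chr12:57520465-57520764, minus strand: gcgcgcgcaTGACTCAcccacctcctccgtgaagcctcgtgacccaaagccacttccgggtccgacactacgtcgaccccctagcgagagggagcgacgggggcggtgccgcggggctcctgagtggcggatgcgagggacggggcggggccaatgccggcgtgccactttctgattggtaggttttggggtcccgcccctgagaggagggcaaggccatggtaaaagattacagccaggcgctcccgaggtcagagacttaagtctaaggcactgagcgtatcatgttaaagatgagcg
CHAC1, chr15:40953221-40953520, plus strand: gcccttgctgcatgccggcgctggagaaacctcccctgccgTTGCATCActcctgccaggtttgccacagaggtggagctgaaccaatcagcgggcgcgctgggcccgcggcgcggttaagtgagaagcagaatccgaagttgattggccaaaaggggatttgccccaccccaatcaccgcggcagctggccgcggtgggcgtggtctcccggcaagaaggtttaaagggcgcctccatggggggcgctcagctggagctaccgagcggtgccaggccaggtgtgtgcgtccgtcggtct
ATF3, chr1:212565157-212565456, plus strand: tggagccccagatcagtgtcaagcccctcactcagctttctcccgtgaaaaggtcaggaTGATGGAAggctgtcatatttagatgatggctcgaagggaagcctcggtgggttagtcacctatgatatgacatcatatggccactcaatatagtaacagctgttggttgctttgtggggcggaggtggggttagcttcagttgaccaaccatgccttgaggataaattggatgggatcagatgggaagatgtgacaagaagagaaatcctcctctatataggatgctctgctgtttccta
CEBPG, chr19:33373863-33374162, plus strand: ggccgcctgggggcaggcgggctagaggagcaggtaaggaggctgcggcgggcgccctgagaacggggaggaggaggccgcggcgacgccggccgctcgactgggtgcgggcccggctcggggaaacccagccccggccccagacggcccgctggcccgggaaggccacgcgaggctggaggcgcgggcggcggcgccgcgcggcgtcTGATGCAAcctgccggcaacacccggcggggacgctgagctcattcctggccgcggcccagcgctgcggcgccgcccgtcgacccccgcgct

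The 7 genes had 15 such windows. The composite element was found in 3 of the 15, against 3.62% of the 35116 windows of all genes. It lay at position -209 from the start in CHAC1, on the opposite strand as TTGCATCA, at -191 in ATF3 as TGATGGAA, and at -42 in the second CEBPG window as TGATGCAA. The AP-1 letters lay at -241 and -238 in the 2 overlapping DDIT3 windows, which share the same match, and at -188 in ATF5. That is 3 of 15 windows against 7.71% of all. Counted by gene, the composite stood in 3 of 7 against 4.46% of 27305 genes, and the AP-1 letters in 2 of 7 against 9.37%. The palindromic cyclic AMP response element TGACGTCA was in none of the 15 windows, against 1.85% of all, and a CCAAT box, in either orientation and not marked by capitals, was in 7 of 15 against 34.6%. None of these windows held both the composite and the AP-1 letters. The TRIB3 windows held none of these motifs, and the CEBPB windows held neither the composite nor the AP-1 letters. A match is a description of letters, and a motif outside these windows would not be seen.

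Compared per length with the authors' FPKM (fragments scaled to gene length and library size), the genes spanned a wide range of levels. Means over the 16 libraries were 23.8 FPKM for TRIB3, 19.6 for CEBPB, 13.3 for CEBPG, 8.35 for ATF5, 7.20 for DDIT3 and 3.69 for CHAC1. The order at the top differed between groups. At 48 h CEBPB averaged 31.6 FPKM in shATF4 cells and 31.4 FPKM in scramble cells, above TRIB3 at 18.4 and 26.0 FPKM. In untreated shATF4 cells CEBPB was at 10.0 FPKM, below CEBPG at 14.3 FPKM and TRIB3 at 21.9 FPKM. ATF3 averaged 0.888 FPKM and rested on 21 to 155 counts per library, so its low values are the least precise. ATF4 averaged 91.3 FPKM on the same scale. Counts behind the other genes ran from 60 to 278 for CHAC1, from 79 to 319 for DDIT3 and from 209 upward for the other 4.

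After 48 h in 5-FU, DDIT3, CHAC1, ATF3, ATF5 and CEBPB were higher than untreated in both lines, CEBPG did not pass the test in either, and TRIB3 passed as lower in shATF4 cells alone. Calls are those of the quasi-likelihood test in edgeR, made where the Benjamini-Hochberg value over all 17309 genes was below 0.05. In shATF4 cells at 48 h, 5 of 7 were called higher and 1 lower, where 29.6% of all genes were called higher and 28.7% lower. In scramble cells at 48 h, 5 of 7 were called higher and 0 lower, where the shares of all genes were 30.6% and 30%. The 7 genes had a median log2 change of 0.90 in shATF4 cells and 1.08 in scramble cells, and all genes tested had medians of 0.03 and 0.03.

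At 24 h fewer of the 7 had moved. In shATF4 cells 2 were called higher, ATF5 and CEBPB, and 1 lower, CEBPG, where 23.2% of all genes were called higher and 21.2% lower. In scramble cells 4 were called higher, DDIT3, CHAC1, ATF5 and CEBPB, and 0 lower, where the shares were 21.8% and 22.2%. Setting 48 h against 24 h directly, 3 of 7 were called higher in shATF4 cells and 0 lower (23.7% and 24.5% of all genes), and 5 of 7 higher in scramble cells and 0 lower (18.8% and 19.5%). The 24 h and 48 h comparisons of a line share its untreated libraries, which have no stated time of their own, so time in culture cannot be told apart from time in drug.

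**Figure D1:**
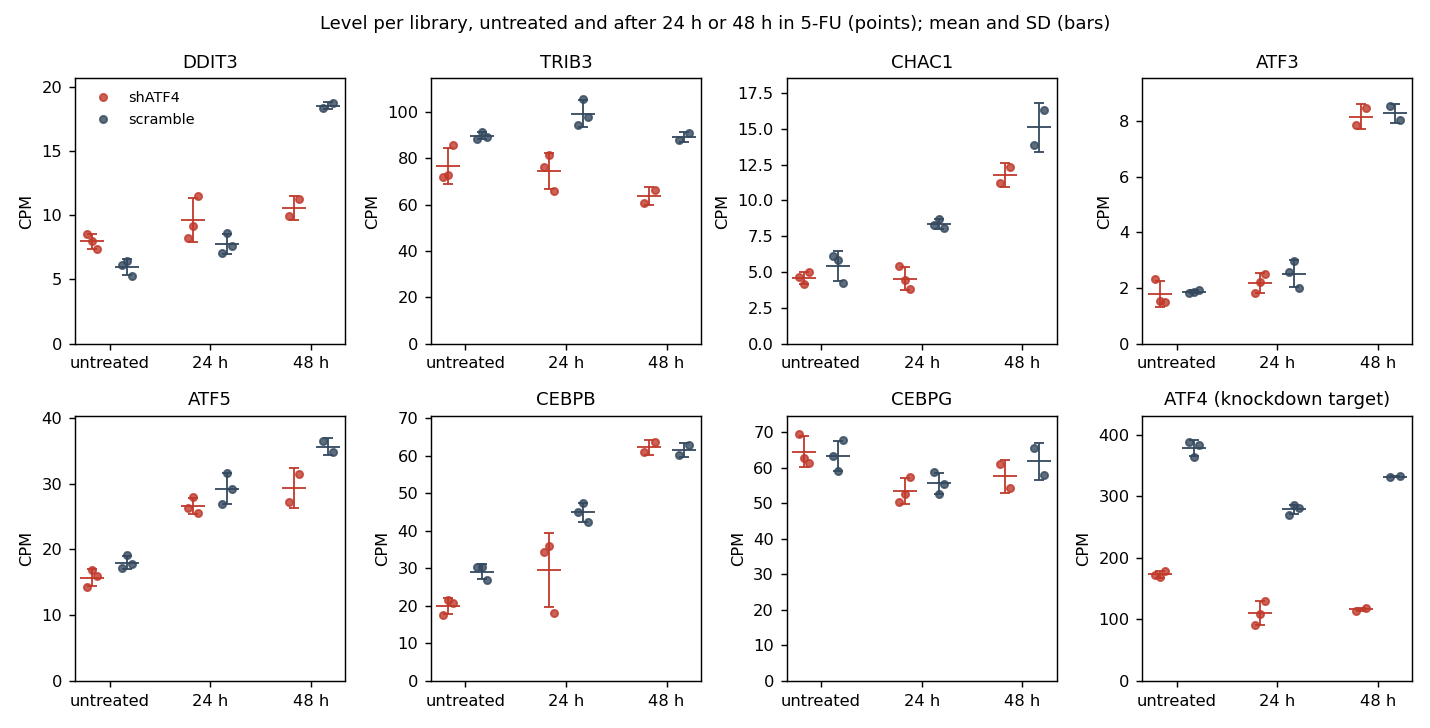
Level in CPM (vertical axis, from 0) of the 7 genes and of ATF4 in each library, by treatment (horizontal axis), with shATF4 libraries in red left of scramble libraries in dark blue; points are libraries and bars the mean and SD of the group. DDIT3 at 48 h reached 18.3 and 18.7 CPM in scramble cells, above the 9.93 and 11.3 CPM of shATF4 cells, while ATF3 and CEBPB rose to overlapping levels in both lines.

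DDIT3 (ENSG00000175197, chromosome 12, 57516588 to 57521737, minus strand, GRCh38) encodes CHOP, the bZIP factor that drives the late, death-associated arm of the stress response. Untreated, it had 8.54, 8.02 and 7.37 CPM in shATF4 libraries against 6.15, 6.47 and 5.29 CPM in scramble libraries. At 24 h it had 8.23, 9.12 and 11.5 CPM in shATF4 libraries against 7.07, 8.61 and 7.64 CPM in scramble libraries. At 48 h it had 9.93 and 11.3 CPM in shATF4 libraries against 18.3 and 18.7 CPM in scramble libraries. The order of the lines thus turned with time: all 3 untreated shATF4 libraries lay above all scramble libraries, the groups overlapped at 24 h, and both 48 h shATF4 libraries lay below both scramble libraries.

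The rise of DDIT3 at 48 h was 3.10-fold in scramble cells (log2 change 1.63 ± 0.15 SE, 2 against 3 libraries, adjusted p = 6.43e-09) and 1.33-fold in shATF4 cells (0.41 ± 0.15, 2 against 3 libraries, adjusted p = 0.025). The smaller of these calls was lost without untreated replicate 2 (adjusted p = 0.0502) or 3 (0.0803), without 48 h replicate 2 (0.198) and with no filter on low counts (0.078). The difference between the responses, shATF4 minus scramble, was -1.22 ± 0.21 on the log2 scale (95% interval -1.67 to -0.78, adjusted p = 0.00298), and it passed under all 23 alternatives, with adjusted p between 8.04e-05 and 0.0224. In the direct comparison at 48 h DDIT3 was 1.75-fold lower in shATF4 cells than in scramble cells (-0.81 ± 0.15, 2 against 2 libraries, adjusted p = 0.00182, 9.94e-05 to 0.0368 over the alternatives).

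Most of the scramble rise came after 24 h. Between 24 h and 48 h DDIT3 changed by 0.13 ± 0.15 in shATF4 cells (adjusted p = 0.474; 0.29 and 0.114 without 24 h replicate 3) and by 1.25 ± 0.14 in scramble cells (adjusted p = 8.09e-07), and the difference between these changes was -1.12 ± 0.21 (95% interval -1.55 to -0.69, adjusted p = 0.00204; -0.97 and 0.0023 without shATF4 24 h replicate 3). That last comparison was added after the values were seen. At 24 h against untreated the log2 changes were 0.27 ± 0.14 in shATF4 cells (adjusted p = 0.118; 0.12 and 0.532 without 24 h replicate 3) and 0.38 ± 0.15 in scramble cells (adjusted p = 0.0408). The scramble call was lost in 4 of the fits that left out 1 library, without untreated replicate 1 (0.0683), untreated replicate 3 (0.154), 24 h replicate 2 (0.141) or 24 h replicate 3 (0.0643), and also with no filter on low counts (0.102). Without 24 h replicate 1 the shATF4 change passed (0.36, adjusted p = 0.0491).

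Before treatment the higher DDIT3 level in shATF4 cells did not pass (log2 difference 0.42 ± 0.15, adjusted p = 0.161), nor did that at 24 h (0.31 ± 0.14, adjusted p = 0.112; 0.16 without 24 h replicate 3). DDIT3 overlaps MARS and MBD6 on the opposite strand in the authors' table, by 982 and 1028 bp. On the same strand AC022506.1 overlaps it by 2769 bp, with 0 counts in every library. The strand setting of the counting is not given, so reads of the overlaps cannot be assigned with certainty. Reads shared with AC022506.1 could not be told apart by strand under any setting. MARS did not show the same pattern: at 48 h against untreated it fell by 0.77 in shATF4 cells and by 0.87 in scramble cells on the log2 scale, and its interaction was 0.10 ± 0.11 (adjusted p = 0.724). The interaction of MBD6 was -0.11 ± 0.16 (adjusted p = 0.815).

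TRIB3 (ENSG00000101255, chromosome 20, 362835 to 397559, plus strand) encodes a pseudokinase, a kinase-like protein that binds ATF4 and CHOP and restrains them. Untreated libraries had 71.9, 72.6 and 85.7 CPM in shATF4 cells against 88.5, 91.4 and 89.1 CPM in scramble cells. After 24 h the values were 76.3, 81.3 and 65.9 CPM in shATF4 cells against 94.5, 106 and 97.7 CPM in scramble cells, and after 48 h 60.8 and 66.3 CPM against 87.8 and 90.9 CPM. Every shATF4 library lay below every scramble library, at any time. Knockdown cells were 1.33-fold lower at 24 h (-0.41 ± 0.08, 3 against 3 libraries, adjusted p = 0.00163; -0.33 and 0.00455 without shATF4 24 h replicate 3) and 1.41-fold lower at 48 h (-0.49 ± 0.10, 2 against 2 libraries, adjusted p = 0.00371). The call at 48 h was lost without shATF4 replicate 1 (0.0691) or scramble replicate 2 (0.0542). Untreated, the difference of -0.23 ± 0.08 did not pass (adjusted p = 0.192).

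TRIB3 was the one gene of the 7 called lower with 5-FU at 48 h. In shATF4 cells the change was -0.27 ± 0.09 (adjusted p = 0.0184), and it was lost without untreated replicate 3 (0.113), without 48 h replicate 1 (0.144) and with upper-quartile scaling (-0.15, adjusted p = 0.198). In scramble cells it was -0.00 ± 0.09 (95% interval -0.20 to 0.19, adjusted p = 0.97). The difference between those responses was -0.27 ± 0.13 and did not pass (adjusted p = 0.343). Upper-quartile scaling moved the median of all genes up by 0.126 at 48 h in shATF4 cells and by 0.145 in scramble cells on the log2 scale, and small changes such as this one are to be read relative to it. At 24 h against untreated the changes were -0.04 ± 0.08 in shATF4 cells (adjusted p = 0.71) and 0.15 ± 0.08 in scramble cells (adjusted p = 0.164). The scramble change passed with upper-quartile scaling (0.22, adjusted p = 0.0399) and in a fit of the compared libraries alone (0.18, 0.0324). Between 24 h and 48 h in shATF4 cells the change was -0.23 ± 0.09 (adjusted p = 0.0518), and -0.31 (0.00525) without 24 h replicate 3.

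CHAC1 (ENSG00000128965, chromosome 15, 40952962 to 40956519, plus strand) encodes an enzyme that degrades glutathione, the main thiol antioxidant. It had 4.64, 4.15 and 5.01 CPM in untreated shATF4 libraries against 6.15, 5.83 and 4.22 CPM in untreated scramble libraries, which overlapped. At 24 h there were 5.43, 4.42 and 3.78 CPM in shATF4 libraries against 8.28, 8.74 and 8.05 CPM in scramble libraries, and at 48 h 11.2 and 12.3 CPM against 13.9 and 16.3 CPM. The shATF4 libraries at 24 h thus overlapped the untreated ones while the scramble libraries lay above theirs, and by 48 h both lines were above all of their earlier values.

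The rise of CHAC1 at 48 h over untreated was 2.56-fold in shATF4 cells (1.35 ± 0.17, adjusted p = 7.44e-07) and 2.8-fold in scramble cells (1.48 ± 0.16, adjusted p = 1.09e-07). At 24 h the changes were -0.02 ± 0.17 in shATF4 cells (adjusted p = 0.942; 0.10 without replicate 3) and 0.63 ± 0.16 in scramble cells (adjusted p = 0.00263). The difference between the 24 h responses was -0.65 ± 0.23 and did not pass (adjusted p = 0.137), except without shATF4 24 h replicate 1 (-0.82, adjusted p = 0.0422). In the direct comparison at 24 h CHAC1 was 1.84-fold lower in shATF4 cells than in scramble cells (-0.88 ± 0.16, 3 against 3 libraries, adjusted p = 0.000673; -0.76 and 0.00289 without shATF4 24 h replicate 3). The differences untreated (-0.23 ± 0.17, adjusted p = 0.614) and at 48 h (-0.36 ± 0.17, 95% interval -0.71 to -0.01, adjusted p = 0.201) did not pass.

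ATF3 (ENSG00000162772, chromosome 1, 212565334 to 212620777, plus strand) encodes a bZIP factor induced by many stresses, the DNA damage response among them. Untreated levels were 2.32, 1.52 and 1.503 CPM in shATF4 libraries against 1.83, 1.84 and 1.94 CPM in scramble libraries. They were 1.81, 2.21 and 2.50 CPM against 2.59, 2.95 and 2.01 CPM at 24 h, and 7.85 and 8.47 CPM against 8.53 and 8.04 CPM at 48 h. The lines overlapped at each of the 3 states, and both 48 h groups stood far above the rest. The rise at 48 h was the largest among the 7 genes in either line: 4.55-fold in shATF4 cells (2.19 ± 0.21, adjusted p = 1.97e-08) and 4.41-fold in scramble cells (2.14 ± 0.21, adjusted p = 1.95e-08). The difference between these responses was 0.04 ± 0.31 (95% interval -0.59 to 0.68, adjusted p = 0.969). Neither line passed at 24 h (0.29 ± 0.23, adjusted p = 0.33, in shATF4 cells, or 0.17 and 0.646 without 24 h replicate 3, and 0.42 ± 0.22, adjusted p = 0.127, in scramble cells).

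ATF5 (ENSG00000169136, chromosome 19, 49928702 to 49933935, plus strand) encodes the paralog of ATF4 that is tied to the mitochondrial unfolded protein response. It had 14.3, 16.9 and 16.03 CPM in untreated shATF4 libraries against 17.1, 19.1 and 17.8 CPM in scramble libraries. At 24 h it had 26.3, 27.9 and 25.6 CPM against 26.9, 31.7 and 29.2 CPM, and at 48 h 27.2 and 31.5 CPM against 36.6 and 34.8 CPM. Most of its rise was present by 24 h, and all treated libraries were above all untreated ones. At 24 h the rise was 1.69-fold in shATF4 cells (0.76 ± 0.10, adjusted p = 2.78e-06) and 1.62-fold in scramble cells (0.70 ± 0.10, adjusted p = 5.73e-06). At 48 h it was 1.87-fold (0.90 ± 0.11, adjusted p = 3.46e-07) and 1.98-fold (0.98 ± 0.10, adjusted p = 6.41e-08). The step between 24 h and 48 h did not pass in shATF4 cells (0.14 ± 0.10, adjusted p = 0.265) and passed in scramble cells (0.29 ± 0.10, adjusted p = 0.0303), a call lost when any of 24 h replicates 1 (0.152) and 3 (0.0805) and 48 h replicates 1 (0.228) and 2 (0.106) was left out, or the filter on low counts (0.116).

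Knockdown cells had somewhat less ATF5, but no difference passed: -0.20 ± 0.10 in untreated cells (adjusted p = 0.401), then -0.14 ± 0.09 (adjusted p = 0.317) after 24 h and -0.28 ± 0.11 (adjusted p = 0.123) after 48 h. ATF5 overlaps NUP62 by 1062 bp on the opposite strand. NUP62 had log2 changes of -0.15 ± 0.10 in shATF4 cells (adjusted p = 0.196) and -0.20 ± 0.10 in scramble cells (adjusted p = 0.0805) at 48 h, opposite in sign to those of ATF5. IL4I1, the other overlapping gene with counts, had 6 to 19 per library. AC011452.1 overlaps ATF5 by 5234 bp on the opposite strand and had 0 counts in every library.

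CEBPB (ENSG00000172216, chromosome 20, 50190734 to 50192689, plus strand) encodes C/EBPβ, a bZIP partner of ATF4 and CHOP and a regulator of inflammatory and secretory genes. It had 17.6, 21.6 and 20.8 CPM in untreated shATF4 libraries against 30.3, 30.2 and 26.9 CPM in untreated scramble libraries. At 24 h the shATF4 libraries had 34.3, 36.1 and 18.2 CPM, against 45.1, 47.4 and 42.4 CPM in scramble libraries. At 48 h there were 60.9 and 63.8 CPM against 60.1 and 62.9 CPM. The shATF4 line thus lay below the scramble line untreated and at 24 h with no overlap, and the lines overlapped at 48 h. The value of 18.2 CPM is that of replicate 3, which stood apart.

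CEBPB at 48 h was 3.11-fold above untreated in shATF4 cells (1.64 ± 0.17, adjusted p = 6.92e-08) and 2.11-fold in scramble cells (1.08 ± 0.17, adjusted p = 1.21e-05). At 24 h the changes were 0.55 ± 0.16 in shATF4 cells (adjusted p = 0.00945) and 0.63 ± 0.16 in scramble cells (adjusted p = 0.00263). The shATF4 value was 0.81 (2.52e-07) without replicate 3, and its call was lost without untreated replicate 1 (0.0526), without 24 h replicate 1 (0.0655) or 2 (0.0757), and in a fit of the compared libraries alone (0.0608). Between 24 h and 48 h CEBPB changed by 1.08 ± 0.17 in shATF4 cells (adjusted p = 2.12e-05; 0.82 without 24 h replicate 3) and by 0.45 ± 0.17 in scramble cells (adjusted p = 0.0354). The scramble call was lost in 7 fits that left out 1 library, among them without 48 h replicate 2 (0.19) and without 24 h replicate 3 (0.116).

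With all libraries the untreated knockdown difference of CEBPB was -0.54 ± 0.17 and did not pass (adjusted p = 0.0907). Without shATF4 24 h replicate 3 the same difference passed (-0.54, adjusted p = 0.000373). It also passed with DESeq2 (0.0293), in a fit of the compared libraries alone (0.0129) and with no filter on low counts (7.77e-05). At 24 h CEBPB was 1.53-fold lower in shATF4 cells (-0.61 ± 0.16, 3 against 3 libraries, adjusted p = 0.0086). Without shATF4 24 h replicate 3 the difference shrank to -0.35 and passed (0.00815), and in a fit of the 6 compared libraries alone it did not (-0.61, adjusted p = 0.0667). At 48 h the difference was 0.02 ± 0.18 (95% interval -0.36 to 0.39, adjusted p = 0.968).

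The difference between the 48 h responses of CEBPB was thus positive, 0.56 ± 0.24, the opposite sign to that of DDIT3. It did not pass with all libraries (adjusted p = 0.263), and it passed without shATF4 24 h replicate 3 (0.56, adjusted p = 0.0101), in a fit of the compared libraries alone (0.53, 0.0353) and with no filter on low counts (0.56, 0.027). CEBPB overlaps CEBPB-AS1, an antisense transcript with 6 to 36 counts per library against 258 to 1167 for CEBPB itself. Between 24 h and 48 h the difference between the lines was 0.63 ± 0.24 (adjusted p = 0.104), and 0.37 (0.0686) without shATF4 24 h replicate 3. This difference passed with no filter on low counts (0.64, adjusted p = 0.00201) and with a replicate block (0.65, 0.0412). It also passed without shATF4 24 h replicate 1 (0.78, 0.0402) or 2 (0.80, 0.044), and without both libraries that stood apart (0.37, 0.0457).

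CEBPG (ENSG00000153879, chromosome 19, 33373330 to 33382686, plus strand) encodes C/EBPγ, which lacks a transactivation domain and forms heterodimers with ATF4. It had 69.5, 62.8 and 61.3 CPM in untreated shATF4 libraries against 63.3, 59.0 and 67.7 CPM in scramble libraries. At 24 h it had 50.5, 52.5 and 57.5 CPM against 58.7, 52.5 and 55.6 CPM, and at 48 h 61.0 and 54.4 CPM against 65.6 and 58.1 CPM. The lines overlapped at each state, and the lowest values of both were at 24 h. The 24 h change was -0.27 ± 0.08 in shATF4 cells (adjusted p = 0.0123; 0.0756 without untreated replicate 1) and -0.19 ± 0.08 in scramble cells (adjusted p = 0.0746), where it passed without scramble untreated replicate 2 (-0.24, 0.0393) and without shATF4 24 h replicate 3 (-0.19, 0.0482). At 48 h the changes were -0.16 ± 0.09 (adjusted p = 0.143) and -0.03 ± 0.09 (adjusted p = 0.77). The 3 knockdown differences lay between -0.10 and 0.03 on the log2 scale and none passed. Without shATF4 24 h replicate 3 that at 24 h was -0.11 in place of -0.06.

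**Figure D2:**
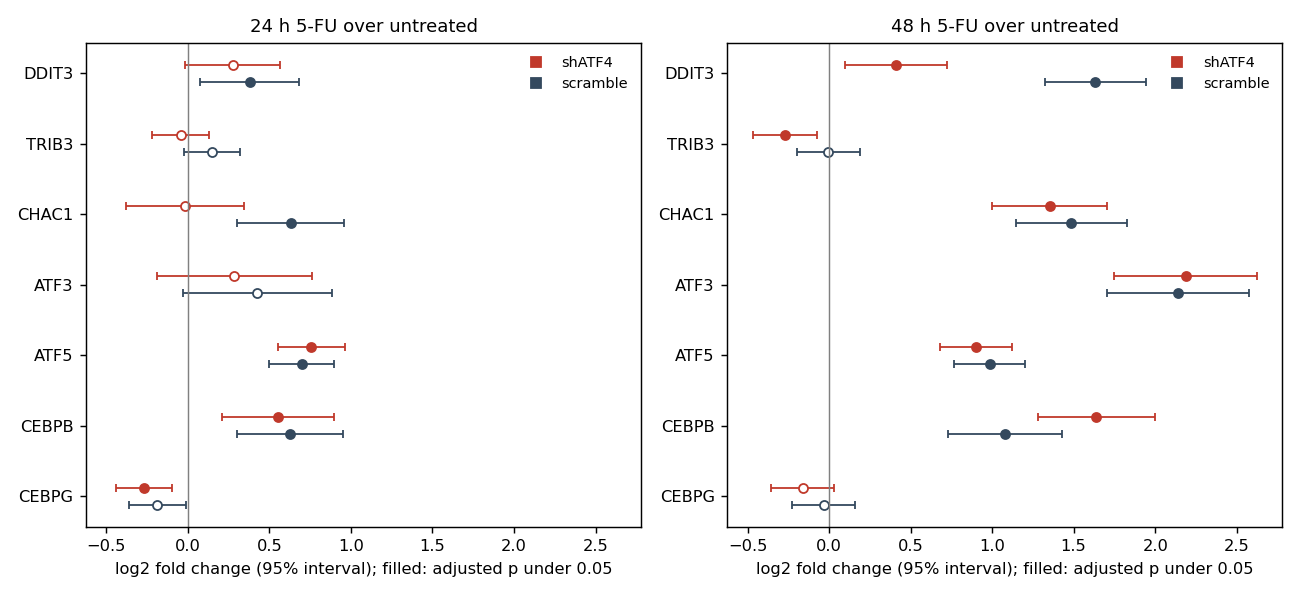
Log2 fold change of the 7 genes after 24 h (left) and 48 h (right) in 5-FU over untreated, in shATF4 cells (red, above) and scramble cells (dark blue, below); points are estimates of edgeR's quasi-likelihood model, lines 95% intervals, and filled points passed at an adjusted p under 0.05. At 48 h the intervals of DDIT3 do not overlap between the lines (0.41 in shATF4 cells and 1.63 in scramble cells), while those of CHAC1, ATF3 and ATF5 overlap widely.

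Knockdown against scramble asked how the 7 genes depend on the line at each state. Untreated, 0 of 7 were called in either direction, where 1.08% of all genes were called higher and 1.84% lower. At an unadjusted p under 0.05, 3 of the 7 passed, DDIT3 higher and TRIB3 and CEBPB lower, and DESeq2 called 1, CEBPB. The shares just given are for the adjusted edgeR call, so they are no background for the unadjusted or DESeq2 counts. At 24 h 3 of 7 were called lower, TRIB3, CHAC1 and CEBPB, and 0 higher, where 9.89% of all genes were called lower and 10.5% higher. At 48 h 2 of 7 were called lower, DDIT3 and TRIB3, and 0 higher, where 5.53% were called lower and 3.92% higher. TRIB3 alone was called at both times. RN7SL took 0.0224% to 0.0713% of counts in shATF4 libraries at 24 h and 0.00424% to 0.00614% in scramble libraries at 24 h, and its part in the 24 h differences was not tested.

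**Figure D3:**
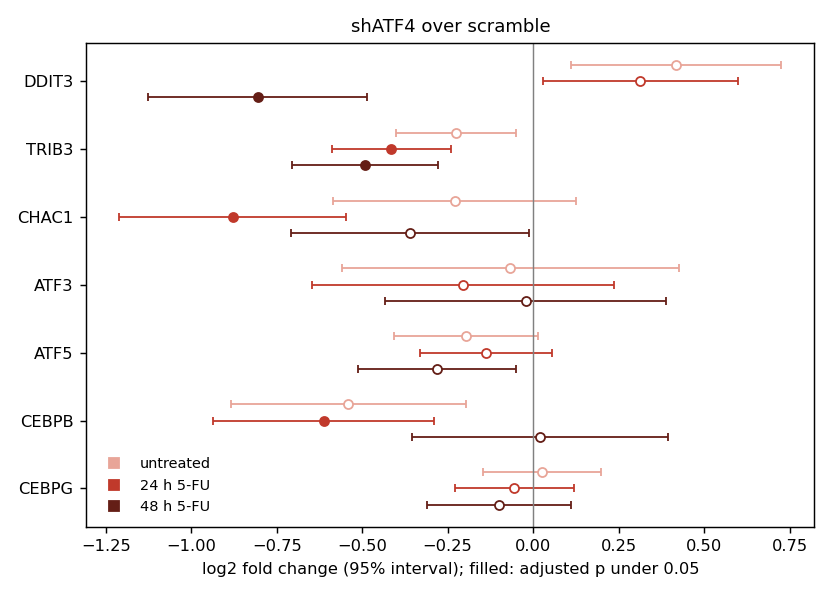
Log2 fold change of the 7 genes in shATF4 over scramble cells, untreated, at 24 h and at 48 h in 5-FU (light to dark); points are estimates of edgeR's quasi-likelihood model, lines 95% intervals, and filled points passed at an adjusted p under 0.05. DDIT3 lies at 0.42 untreated and -0.81 at 48 h, CEBPB at -0.54 untreated and 0.02 at 48 h, and TRIB3 below 0 at all 3 states.

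The interaction contrasts set the 5-FU response of one line against that of the other. At 24 h 0 of 7 passed with edgeR in either direction (0.947% of all genes higher in the shATF4 response and 1.18% lower). At an unadjusted p under 0.05, 1 of 7 passed, CHAC1, and DESeq2 called 0, counts for which those shares are no background. At 48 h 1 of 7 passed, DDIT3, with the smaller rise in shATF4 cells, and 0 in the other direction, where 1.44% of all genes were called lower and 1.3% higher. For the change between 24 h and 48 h, again DDIT3 alone passed, as lower, where 4.27% of all genes were called lower and 4.29% higher.

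Lists of related genes follow, of which some overlap: PPP1R15A, JDP2, CEBPA, ERN1 and ATF4 stand in more than 1. Of 23 other target genes commonly shared by ATF4 and CHOP, 11 were lower and 2 higher in shATF4 cells at 24 h, where 9.89% of all genes were lower and 10.5% higher. The median log2 difference of the list was -0.26 against 0.01 over all genes. PHGDH, the first enzyme of serine synthesis, fell by 1.18 ± 0.09, the cysteinyl-tRNA synthetase CARS by 0.55 ± 0.06 and the mTORC1 inhibitor DDIT4 by 1.30 ± 0.18, while the amino acid transporter chain SLC3A2 was higher by 0.39 ± 0.06. At 48 h 5 were lower and 1 higher, where the shares of all genes were 5.53% and 3.92% (median -0.17 against 0.00). PPP1R15A, the subunit that directs dephosphorylation of eIF2α, fell by 0.75 ± 0.09, the hormone STC2 by 0.71 ± 0.11 and the cystine transporter SLC7A11 by 0.90 ± 0.19, while the serine hydroxymethyltransferase SHMT2 was higher by 0.34 ± 0.07. Untreated, 2 were lower, PHGDH and DDIT4, and 0 higher by the edgeR test, where the shares were 1.84% and 1.08%.

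Among those 23 genes the response at 48 h differed between the lines for 3, 2 with a positive and 1 with a negative interaction, where the shares of all genes were 1.3% and 1.44%. PPP1R15A resembled DDIT3 in sign, with log2 changes of 1.27 ± 0.08 in shATF4 cells and 1.91 ± 0.08 in scramble cells and an interaction of -0.65 ± 0.12 (adjusted p = 0.0039). PHGDH (0.98 ± 0.13, adjusted p = 0.000338) and SHMT2 (0.44 ± 0.10, adjusted p = 0.015) had the opposite sign. In both lines 10 of the 23 rose and 9 fell at 48 h, where 29.6% of all genes rose and 28.7% fell in shATF4 cells and 30.6% and 30% in scramble cells. The smallest adjusted p was that of GDF15, a stress cytokine, which rose by 2.18 ± 0.09 in shATF4 cells and 2.24 ± 0.09 in scramble cells.

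**Figure D4:**
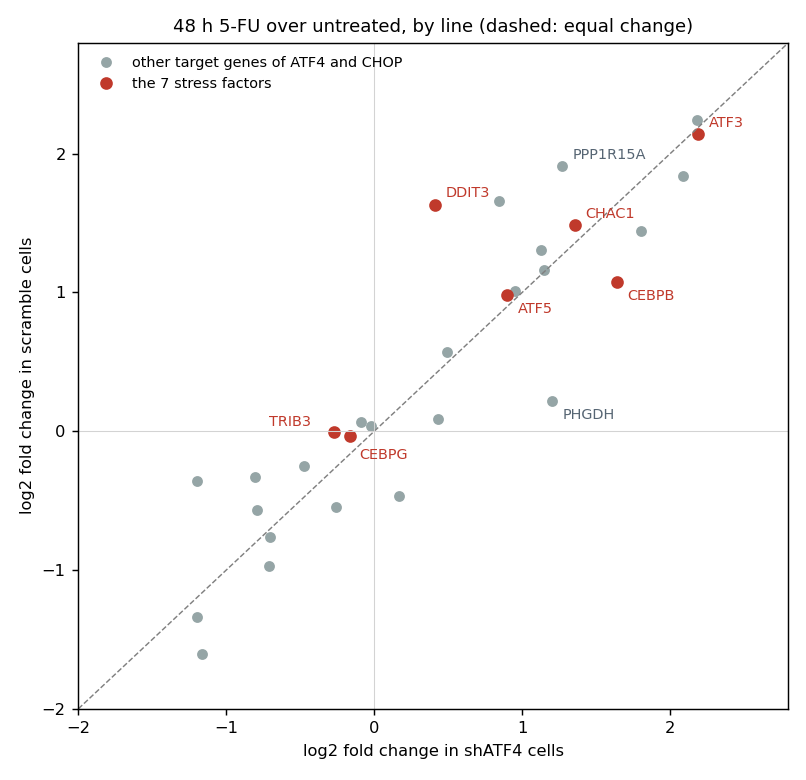
Log2 fold change at 48 h in 5-FU over untreated in shATF4 cells (horizontal) and scramble cells (vertical), for the 7 stress factors (red) and the 23 other target genes of ATF4 and CHOP (grey); the dashed line marks equal change. DDIT3 (0.41 and 1.63) and PPP1R15A (1.27 and 1.91) lie above the line, CEBPB (1.64 and 1.08) and PHGDH (1.20 and 0.22) below it.

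Of 22 other bZIP factors that pair with ATF4, CHOP or C/EBP proteins, 21 passed the filter and CEBPE did not. At 48 h 13 rose and 1 fell in shATF4 cells, where 29.6% and 28.7% of all genes did (median log2 change 1.15, against 0.03 over all genes). In scramble cells 14 rose and 0 fell, where 30.6% and 30% of all genes did (1.16 against 0.03). MAFF, a small MAF protein, rose by 2.46 ± 0.12 in shATF4 cells and 2.77 ± 0.12 in scramble cells, JUNB by 1.81 ± 0.11 and 1.99 ± 0.11, FOS by 3.04 ± 0.20 and 3.13 ± 0.19 and FOSL2 by 1.25 ± 0.10 and 1.56 ± 0.09. The last 3 are subunits of AP-1. In shATF4 against scramble cells at 48 h, 4 were lower and 1 higher (5.53% and 3.92% of all genes), with FOSL1 lower by a log2 difference of -0.58 ± 0.10, FOSL2 of -0.59 ± 0.10 and MAFF of -0.63 ± 0.12.

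Of 9 paralogs of the 7 genes, 8 passed the filter, and at 48 h 3 rose and 2 fell in each line, shares near those of all genes (29.6% and 28.7% in shATF4 cells, 30.6% and 30% in scramble cells). TRIB1 rose by 0.77 ± 0.10 in shATF4 cells and 1.24 ± 0.10 in scramble cells, and TRIB2 had changes of -1.19 ± 0.14 and -1.61 ± 0.15, unlike TRIB3. CEBPA, the myeloid and hepatic C/EBP, rose by 1.85 ± 0.22 and 2.06 ± 0.22, and JDP2, the closest relative of ATF3, by 1.15 ± 0.17 and 1.16 ± 0.17. At 48 h in knockdown cells TRIB2 was higher (0.83 ± 0.17, adjusted p = 0.00265) and TRIB1 lower (-0.48 ± 0.11, adjusted p = 0.0068) than in scramble cells. Apart from ATF4, which also counts among these paralogs, no other was called in that comparison.

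Of 7 apoptosis genes reported downstream of CHOP, 5 rose and 0 fell at 48 h in each line, where 29.6% of all genes rose and 28.7% fell in shATF4 cells and 30.6% and 30% in scramble cells. PMAIP1, a BH3-only activator of mitochondrial apoptosis, rose by 1.83 ± 0.10 in shATF4 cells and 1.85 ± 0.10 in scramble cells, and BBC3, another, by 2.48 ± 0.28 and 1.92 ± 0.28. The death receptor TNFRSF10B rose by 0.55 ± 0.07 and 0.35 ± 0.07, and ERN1, the kinase and ribonuclease IRE1α, by 0.61 ± 0.09 and 0.73 ± 0.09. In shATF4 against scramble cells 1 of the 7 was called lower at each state, PMAIP1, and 1 higher at 24 h, TNFRSF10B (0.35 ± 0.06), and at 48 h, the BH3-only gene BCL2L11 (0.46 ± 0.13). The shares of all genes were 1.84% lower untreated, 9.89% lower and 10.5% higher at 24 h, and 5.53% lower and 3.92% higher at 48 h. PMAIP1 was lower in shATF4 cells at each state, by log2 differences of -0.45 ± 0.10 untreated, -0.31 ± 0.09 at 24 h and -0.47 ± 0.11 at 48 h.

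The 6 mitochondrial chaperone and protease genes reported downstream of ATF5 all fell at 48 h in both lines, opposite to ATF5 itself, where 28.7% of all genes fell in shATF4 cells and 30% in scramble cells. LONP1, the matrix protease, fell by 1.99 ± 0.10 in shATF4 cells and 2.09 ± 0.10 in scramble cells, and HSPD1, the chaperonin HSP60, by 1.18 ± 0.07 and 1.503 ± 0.07. Of 14 genes of the other branches of the unfolded protein response, 10 fell and 2 rose at 48 h in shATF4 cells, and 10 fell and 3 rose in scramble cells, against the same shares of all genes falling and 29.6% and 30.6% rising. HSPA5, the chaperone BiP, fell by 1.15 ± 0.06 and 1.26 ± 0.06, and HSP90B1 by 0.79 ± 0.07 and 0.96 ± 0.07. Of ATF4 and 7 genes of its upstream kinases and phosphatase subunits, 1 rose and 3 fell at 48 h in shATF4 cells and 1 rose and 4 fell in scramble cells, where 29.6% rose and 28.7% fell among all genes in shATF4 cells and 30.6% and 30% in scramble cells. The riser was PPP1R15A in both.

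Across the 16 libraries, which share their 6 groups and therefore carry the treatment in every correlation, the log2 CPM of CHAC1 and CEBPB (Pearson r = 0.91), CHAC1 and ATF3 (0.86) and ATF5 and CEBPB (0.83) were most alike among the 21 pairs. CEBPG and TRIB3 were unlike the other 5, with r between -0.58 and 0.16. With ATF4 itself, TRIB3 had r = 0.76 and the other 6 lay between -0.14 and 0.43. Among the 12351 other protein-coding genes that averaged 1 CPM or more, DUSP14 (r = 0.92), NGFR (0.91) and KLK3 (0.90) were most like DDIT3, and SHROOM2 (0.94), CACNA1H (0.90) and OSBPL10 (0.88) most like TRIB3. TRIOBP (0.98) was most like CHAC1, CALCOCO1 (0.98) most like ATF3, ITGA5 (0.99) most like ATF5, OAF (0.96) most like CEBPB and ERLIN2 (0.90) most like CEBPG. These are descriptions over 16 libraries and carry no test.

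Fold changes and adjusted p-values of the authors' deposited table cover 7 comparisons, and 46 of its 49 calls for the 7 genes were the same as here. The 3 that differed were CEBPB in untreated knockdown cells, called lower in the authors' deposited table (-0.53, adjusted p = 0.00257), DDIT3 at 24 h in scramble cells, not called there (0.40, adjusted p = 0.13), and DDIT3 at 48 h in shATF4 cells, not called there (0.41, adjusted p = 0.121).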

How the data were processed

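The submitters' processing notes name featureCounts 1.5.0-p3 and the build GRCh38 (hg38); poly(A) RNA was selected and cDNA primed with random hexamers, per the labels' protocols. Aligner, annotation release and strand setting: not given in the sources used here. The deposited counts are whole numbers, not normalized, and the authors' FPKM, log2 fold changes and p-values stand in the same deposited table, per the file headers.

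Counts were filtered with filterByExpr of edgeR 4.0.16 (R 4.3.3), scaled by TMM and fitted in a quasi-likelihood model of 6 group means over all 16 libraries (10 residual degrees of freedom), which shares the spread between groups; the 17309 genes kept held 99.9% of counts. Adjusted p-values are Benjamini-Hochberg values over these genes, called under 0.05. Standard errors were derived from the F statistic, and intervals from the t distribution. Counts carry no molecular identifiers, so SDs cover the spread between libraries only. The edgeR fit and its test of a group difference were tried on simulated counts with 200 changed genes. The interaction contrasts, the alternative fits and the motif search were not.

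Groups were taken from titles. There were 11 planned comparisons and 1 added. The named genes were the 7, ATF4, from each list up to 4 genes of smallest adjusted p (all where 5 or fewer were called) and, for each of the 7, the 3 genes most alike in log2 CPM (prior count 2). Members and lists were chosen with earlier results of these data known. Alternatives were 2 other scalings, no filter, DESeq2 1.42.0, a replicate block, fits of the compared libraries alone, and fits without 1 library or without both that stood apart. The values of 1 list gene are not reported here.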

Additional observations from a re-analysis of the deposited data

Results flagged for a closer look

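The response of DDIT3 to 5-FU differed between the lines by the test of the difference itself. At 48 h over untreated, the response in shATF4 cells minus that in scramble cells was -1.22 on the log2 scale (edgeR adjusted p = 0.00298). Between 24 h and 48 h the corresponding difference was -1.12 (adjusted p = 0.00204), a comparison added after the values were seen. Both rest on the same pairs of 48 h libraries, 2 in each line, so they are not independent of each other.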

How the results depend on the processing

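Each of 84 results, 7 genes in 12 comparisons, was recomputed under 23 alternatives. Of 1932 values, 1829 kept their direction and side of the threshold, 33 lost a call, 28 gained one and 42 changed sign, and 0 of those 42 belonged to a call made with all libraries. The 48 h groups hold 2 libraries, and without 1 of them the lone library is assumed to vary like the other groups. Low counts limit ATF3.

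Whether the replicate numbers pair the libraries could not be decided from correlations this small. Same-numbered libraries of different groups had correlations of -0.077 to 0.116 (median 0.020, 36 pairs). Those with different numbers had -0.116 to 0.103 (median -0.011, 70 pairs), and 7 of 16 libraries were closest to their own number. With the replicate block, 1 of the 7 genes was called untreated in place of 0 (CEBPB, -0.54, adjusted p = 0.0398) and 2 in place of 1 in the interaction between 24 h and 48 h (CEBPB, 0.65, 0.0412, was added), CEBPB at 48 h against 24 h in scramble cells was lost (0.36, 0.0553), CEBPG at 24 h in scramble cells (-0.19, 0.0418) and TRIB3 at 48 h against 24 h in shATF4 cells (-0.23, 0.0426) were gained, no other call of the 7 genes changed, and all genes called moved to 644 in place of 369 in the 24 h interaction. The counts in place of 0 untreated were also 1 with no filter, DESeq2, the compared libraries alone and without both libraries that stood apart. The 48 h interaction called 2 in place of 1 with no filter, the compared libraries alone and without both libraries. The interaction between 24 h and 48 h called 2 with no filter and without both libraries. In each of these the added gene was CEBPB. Where all genes called under the same setting are not given below, such a count has no background here. All genes called in the 24 h interaction were 798 with no filter, 675 with DESeq2, 173 with the compared libraries alone and 647 without both libraries. The compared libraries alone gave 2189 in place of 3533 for knockdown at 24 h and 2748 in place of 1636 at 48 h. Without both libraries there were 891 in place of 506 for untreated knockdown, 3021 for knockdown at 48 h, 1204 in place of 475 for the 48 h interaction and 2441 in place of 1481 for that between 24 h and 48 h. Without 1 library these last 3 ran from 600 to 2463, 136 to 991 and 592 to 2006, untreated knockdown from 277 to 774, knockdown at 24 h from 2067 to 3885 and the 24 h interaction from 65 to 1188, so the background shares of all genes called move with the setting too.

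Signs turned as follows, and the cause was not tested. TRIB3 at 48 h in scramble cells was 0.0206 under median-of-ratios factors and under DESeq2, 0.14 under upper-quartile scaling, 0.018 with the compared libraries alone and 0.0099 without both libraries. Upper-quartile scaling gave CHAC1 at 24 h in shATF4 cells 0.01996 and CEBPG at 48 h in scramble cells 0.112. Without both libraries, CEBPG untreated knockdown was -0.022, TRIB3 and CHAC1 at 24 h in shATF4 cells 0.039 and 0.104, CEBPB in the 24 h interaction 0.158 and CEBPG in the interaction between 24 h and 48 h 0.0115.

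Leaving out 1 library at a time, called counts ran from 0 to 1 for untreated knockdown, 1 to 2 for knockdown at 48 h, 1 to 3 for 24 h in shATF4 cells, 3 to 5 for 24 h in scramble cells, 4 to 6 for 48 h in shATF4 cells (4 without untreated replicate 3), 3 to 4 for 48 h against 24 h in shATF4 cells, 3 to 5 for 48 h against 24 h in scramble cells, 0 to 1 for the 24 h interaction, and 1 to 2 for each of the 2 other interactions. They stayed at 3 for knockdown at 24 h and at 5 for 48 h in scramble cells. Uncalled values that crossed 0 ran as follows. ATF3 ran from -0.31 to 0.04 untreated knockdown, -0.071 to 0.038 in knockdown at 48 h, -0.30 to 0.10 in the 24 h interaction and -0.062 to 0.28 in the 48 h interaction. ATF5 ran from -0.017 to 0.114 and from -0.19 to 0.022 in those interactions, CHAC1 from -0.24 to 0.0198 in that at 48 h, and CEBPB from -0.24 to 0.19 in that at 24 h. CEBPB ran from -0.0072 to 0.059 in knockdown at 48 h. CEBPG ran from -0.030 to 0.078 untreated knockdown, -0.14 to 0.036 at 48 h in scramble cells and -0.11 to 0.069 in the interaction between 24 h and 48 h. TRIB3 ran from -0.11 to 0.043 at 24 h in shATF4 cells, -0.043 to 0.00895 at 48 h in scramble cells and -0.16 to 0.0073 in the interaction between 24 h and 48 h, and CHAC1 from -0.19 to 0.10 at 24 h in shATF4 cells.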
